A study of Mus musculus with 6 samples.

Results

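The 10 genes described here act in meiotic prophase: Sycp2, Syce1, Syce2, Stag3, Rec8, Smc1b, Mei1, Mei4, Spo11 and Dmc1. They were taken by name from a working list, and their cytosines were those covered by 10 or more reads in all 6 deposited files, from 2000 bp before to 2000 bp past each gene on mouse build GRCm38. Under this rule 9 of the 10 members held 303 cytosines, which is 9.74% of the 3111 positions listed for the same spans in any file, and Dmc1 held none. In the whole table, 25253 genes had at least 1 cytosine that met the same rule. The assay was RRBS (reduced representation bisulfite sequencing), in which DNA cut by MspI is sequenced after bisulfite treatment and the methylation level of a cytosine is the percentage of its reads that stayed unconverted. The tissue was the right testis of 6 mature male mice of the KM strain. In 3 of them the left testis had been taken out before puberty (hemicastrated), and the other 3 are labelled normal mice, which the protocol and design text describe as operated with sham surgery at the same time (sham). No transgene, allele or drug is named for either group, and each library came from a single animal. A whole testis mixes germ cells of all stages with Sertoli, Leydig and other somatic cells, so that a level is an average over cells, and a changed cell makeup and changed methylation within a cell type cannot be told apart.

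Meiosis begins with programmed DNA breaks. SPO11 is the enzyme that cuts, MEI4 and MEI1 are needed for the cuts to form, and DMC1 coats the resected ends and carries them into the homologous chromosome. The chromosome axis holding the sister chromatids is built on meiotic cohesin, whose germline subunits are REC8 (the cleavable kleisin), STAG3 and SMC1B, and on SYCP2, a lateral element protein of the synaptonemal complex. SYCE1 and SYCE2 belong to the central element that zips the paired axes. Such genes are used in germ cells and idle in most other tissues, and promoters of some germline genes are known to carry methylation in somatic cells and to lack it in germ cells.

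Promoter stretches were read from RefSeq promoter sequences of build GRCm38.p6, where 9 members matched and Spo11 did not. The 4 stretches printed here were chosen since they span the CpG content of the promoter ends measured below, 5′ to 3′ on the gene's strand, with every CpG in capitals; each was kept to the bases that lie in no annotated gene.
Sycp2: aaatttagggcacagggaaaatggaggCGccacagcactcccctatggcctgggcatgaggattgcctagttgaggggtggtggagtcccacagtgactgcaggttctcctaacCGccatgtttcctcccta
Smc1b: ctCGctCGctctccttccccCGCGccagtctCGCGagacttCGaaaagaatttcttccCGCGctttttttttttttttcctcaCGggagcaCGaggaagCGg
Syce2: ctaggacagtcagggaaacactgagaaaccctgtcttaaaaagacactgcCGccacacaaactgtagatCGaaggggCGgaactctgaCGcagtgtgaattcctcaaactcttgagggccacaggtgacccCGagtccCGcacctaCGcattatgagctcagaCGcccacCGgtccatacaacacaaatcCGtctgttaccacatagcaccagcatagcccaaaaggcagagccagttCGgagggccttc
Mei4: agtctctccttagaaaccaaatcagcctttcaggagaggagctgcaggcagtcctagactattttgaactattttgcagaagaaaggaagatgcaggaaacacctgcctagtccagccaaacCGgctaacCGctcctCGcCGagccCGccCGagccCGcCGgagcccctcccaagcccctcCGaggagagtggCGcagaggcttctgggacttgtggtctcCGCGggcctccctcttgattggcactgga
The Sycp2 stretch, chr2:178407777-178407908 on the minus strand, has 2 CpGs in 132 bases. Smc1b, chr15:85131958-85132059 on the minus strand, has 12 in 102 bases, and its stretch ends where the neighbouring gene Ribc2 begins. Syce2, chr8:84871861-84872110 on the plus strand, has 11 in 250 bases. Mei4, chr9:81863420-81863669 on the plus strand, has 12 in 250 bases, and 5 measured cytosines lie in it. From 250 bases before to 50 bases past the start, CpGs numbered 30 in Stag3, 29 in Smc1b, 18 in Dmc1 and in Rec8, 16 in Mei4, 14 in Syce1, 10 in Sycp2 and 8 in Mei1, against a median of 7 over 32851 promoters. Syce2 has 2 listed starts, with 19 and 33. The E-box CACGTG, searched on both strands, was found in Stag3 and at the downstream start of Syce2, and 7.15% of all promoters hold it. The letters GGCGGGA, on either strand, were found only at the downstream start of Syce2 among the members, against 11.34% of all promoters. AACNG occurred in every member sequence and in 80.29% of all promoters.

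The 6 files held 64504011 to 78630942 methylation calls at 4188334 to 6473931 positions. Mitochondrial cytosines, which are taken to be unmethylated, read 0.478% to 0.617%, and levels near this value are at the floor of the assay. Each DNA strand of a CpG was a cytosine of its own. The 303 member cytosines fell into 49 blocks of neighbouring cytosines on a strand with near-equal read numbers, so that most neighbours were read on the same fragments and are not independent. Below, a promoter end is 1000 bp either side of the gene start, a body is the rest of the gene, a flank is what remains of the 2000 bp beyond it, and a window level is the unweighted mean over its cytosines, given as mean ± SD over mice.

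Promoter ends of 5 members were measured, and they fell into 2 kinds. Sycp2, Smc1b and Stag3 had levels between 5% and 25%, whereas Syce2 and Mei4 lay below 5%. Among all 14165 promoter ends measured, 7.674% lay between 5% and 25%, 79.45% lay below 5%, and the median was 0.607%. No member differed between the groups after Benjamini-Hochberg adjustment over all windows (edgeR quasi-likelihood test). This test uses counts summed over a window, so that cytosines with more reads weigh more. Its direction can therefore differ from that of the unweighted differences printed here, as at the Syce2 promoter end and the Mei1 and Mei4 bodies. The same test called 0 of 14149 promoter ends in the genome (0%), of which 594 (4.2%) had an unadjusted p under 0.05, and limma called 0 as well. By unweighted level, 4 of the 5 members were higher and 1 was lower in the hemicastrated mice. The median difference was 0.20 points, beside a median of 0.03 points over all promoter ends.

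**Figure D1:**
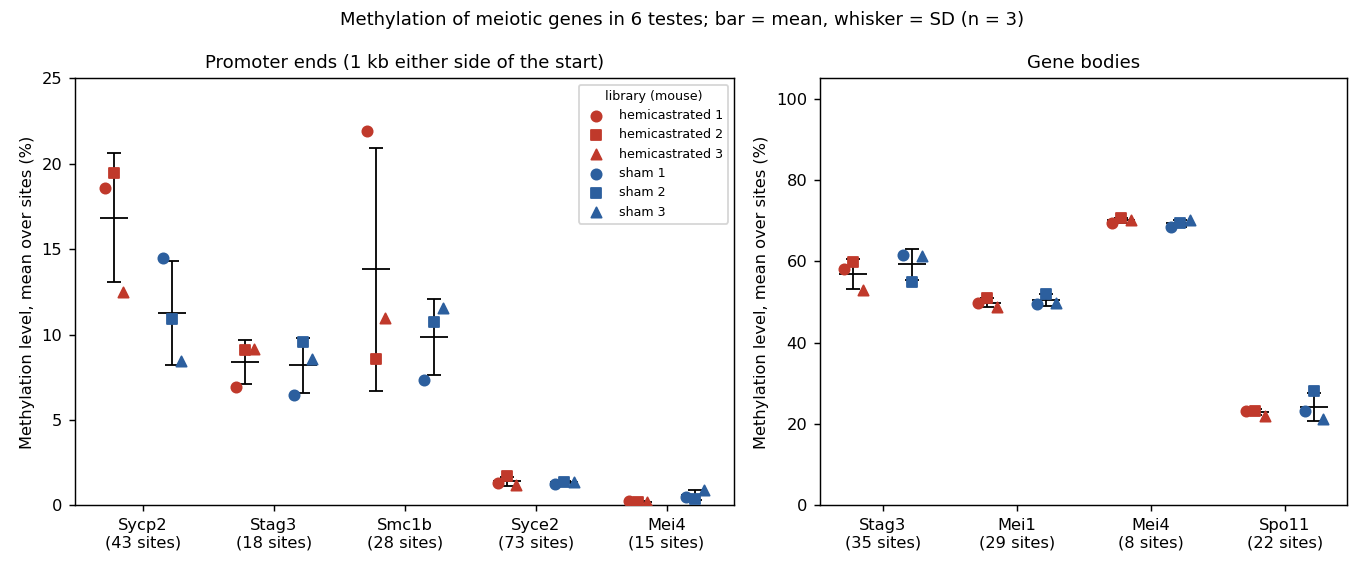
Methylation level in percent (vertical axis) of the promoter ends (left) and gene bodies (right) with at least 3 measured cytosines, by member. Points are single mice, hemicastrated in red and sham in blue, with the mean and SD of 3 mice; the groups overlap in every window but the Mei4 promoter end, where all levels are below 1%.

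Sycp2, the lateral element protein, had the highest promoter end of the members that met the coverage rule. Its 43 cytosines lay 20 to 372 bp past the start, at chr2:178407286-178407638. The levels were 18.6%, 19.5% and 12.5% in hemicastrated mice 1, 2 and 3, and 14.5%, 10.9% and 8.43% in sham mice 1, 2 and 3. Hemicastrated mice 1 and 2 were above all sham mice, and mouse 3 lay within the sham range. The group means were 16.8% ± 3.77 and 11.3% ± 3.03 (SD, n = 3 each), a difference of 5.58 points with a standard error of 2.79. The unadjusted p was 0.066 and the adjusted p was 0.997 (edgeR). With 20 reads required in all files the difference was 2.63 points (adjusted p = 0.994, edgeR). The difference was uneven over the DNA strands. Across 13 CpGs read on both strands, plus strand levels were 30.3%, 25.8% and 9.43% in hemicastrated mice and 15.4%, 7.23% and 5.80% in sham mice, on 17 to 33 reads. On the minus strand the same CpGs read 13.2%, 15.9% and 14.3% against 17.5%, 10.9% and 11.7%. The 2 groups overlapped on both strands. A further 17 cytosines of the minus strand, 188 to 372 bp past the start, read 13.7%, 17.3% and 13.5% against 11.4%, 13.8% and 7.94%. Thus 12.37 points of difference on the plus strand stood beside 1.10 points at the same CpGs on the minus strand.

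Smc1b encodes a meiotic subunit of the cohesin ring. Its promoter end was read at 28 cytosines, in a window shared with 1 other gene, Ribc2. The levels were 21.9%, 8.55% and 11% in hemicastrated mice and 7.35%, 10.8% and 11.5% in sham mice. Hemicastrated mouse 1 stood above the other 5, and hemicastrated mouse 2 was below 2 of the sham mice. The means were 13.8% ± 7.11 and 9.88% ± 2.23, a difference of 3.93 points with a standard error of 4.30 (adjusted p = 0.998, edgeR). Without hemicastrated mouse 1 the difference was -0.107 points, and with levels weighted by coverage it was 1.59 points. The level depended on the side of the start. At 24 cytosines 137 to 267 bp inside the gene (chr15:85131690-85131820) it was 25.1%, 9.75% and 12.8% in hemicastrated mice and 7.53%, 12.2% and 13.5% in sham mice. At 4 cytosines from -259 to -209 bp of the start, inside the bounds of Ribc2, the means of all 6 mice lay between 0% and 6.25%. Hemicastrated mouse 1 was the highest on both strands of the inner cluster, at 19.9% on the plus strand and 30.3% on the minus strand, on a median of 22 and 19 reads.

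Stag3, another cohesin subunit, also had a promoter end of unlike sides. Its start in the promoter table lies at position 138280509 of chromosome 5, which is 7995 bp inside the outer gene boundary. Upstream of it, 12 cytosines from -438 to -307 bp of the start (chr5:138280071-138280202, near the start of Gpc2) read 0.629%, 0% and 0.619% in hemicastrated mice and 0.796%, 0.952% and 0.664% in sham mice. All these values were near the mitochondrial floor. Past the start, 6 cytosines at 466 to 562 bp read 19.6%, 27.2% and 26.3% in hemicastrated mice and 17.8%, 26.8% and 24.5% in sham mice, on 15 to 38 reads. The whole window gave 8.40% ± 1.27 and 8.20% ± 1.59 (SD, n = 3 each), a difference of 0.20 points with a standard error of 1.17 (adjusted p = 0.998, edgeR). Hence Smc1b and Stag3 each had a stretch of low methylation on the outer side and a part-methylated stretch within the gene.

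**Figure D2:**
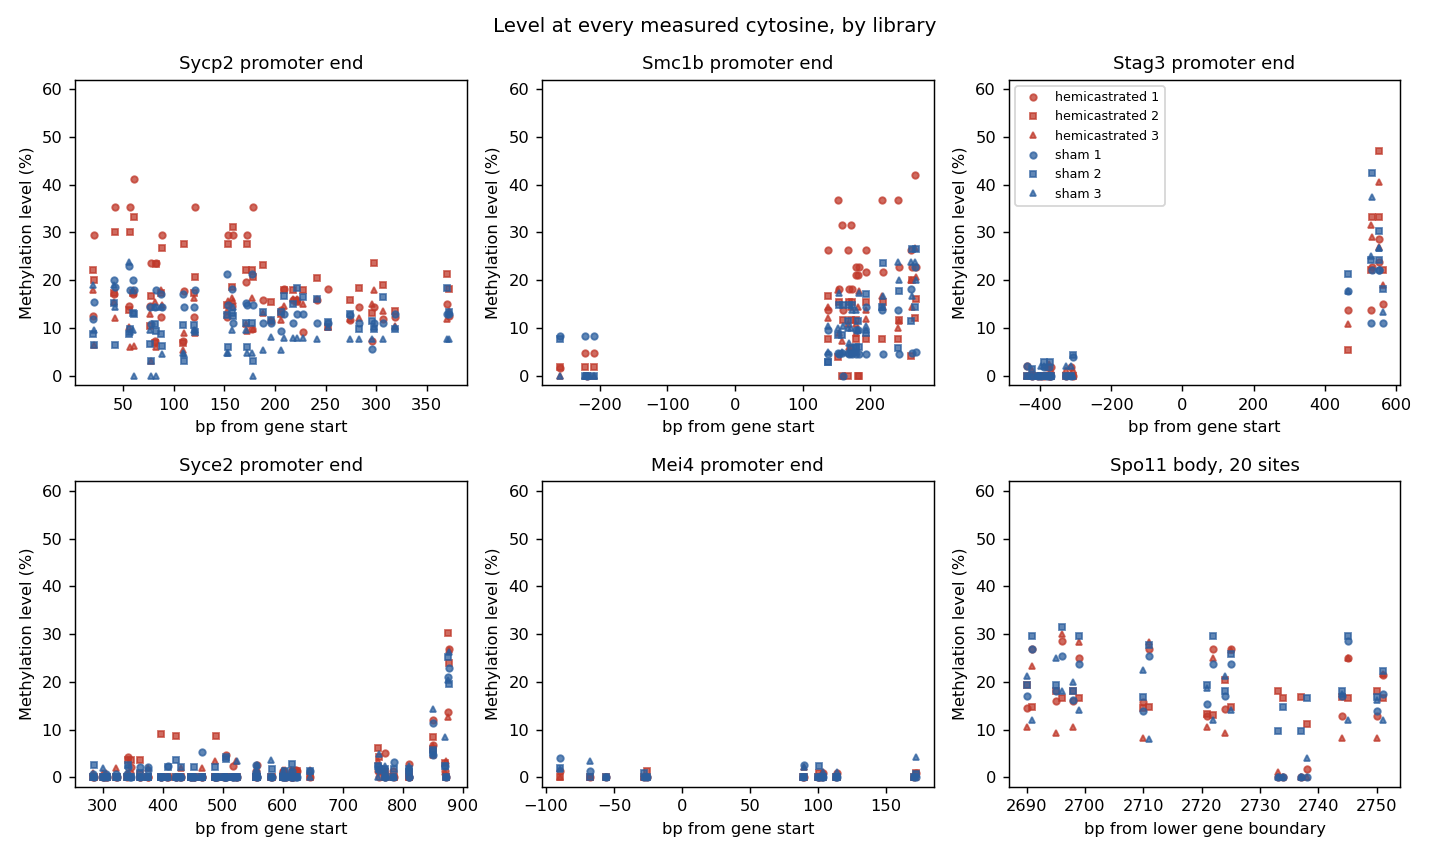
Methylation level in percent (vertical axis) of every measured cytosine at 5 promoter ends and at the 20-cytosine cluster of Spo11, against distance in bp from the gene start (for Spo11 from the lower gene boundary), with a symbol per mouse. Sycp2 and the inner clusters of Smc1b and Stag3 spread between 0% and 47.1%, whereas Mei4 and most of Syce2 lie near 0%.

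Syce2 and Mei4 had nearly unmethylated promoter ends, which at Syce2 were read only past the start. Syce2, of the central element, was read at 73 cytosines between 284 and 877 bp past its start (chr8:84872395-84872988). Levels were 1.29%, 1.70% and 1.22% in hemicastrated mice and 1.28%, 1.40% and 1.40% in sham mice. The difference of 0.042 points was smaller than its standard error of 0.157, and was -0.0913 points with levels weighted by coverage (adjusted p = 0.998, edgeR). Methylation appeared at the inner edge of the cluster. The last CpG, at 876 bp, read 13.7%, 30.3% and 12.6% in hemicastrated mice and 20.9%, 25.3% and 20.5% in sham mice on its plus strand. Its minus strand read 19.6% to 26.8% over the 6 mice.

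Mei4, needed for break formation, was read at 15 cytosines from 90 bp before to 172 bp past the start (chr9:81863580-81863842). Levels were 0.260%, 0.188% and 0.213% in hemicastrated mice and 0.516%, 0.399% and 0.910% in sham mice. All hemicastrated mice were below all sham mice, which was so of 3.91% of promoter ends in the genome; 5.65% had the opposite order and 9.57% either. The difference of -0.388 points had a standard error of 0.156, with an unadjusted p of 0.033 and an adjusted p of 0.997 (edgeR). The 6 values lay around the mitochondrial reading, at the floor of the assay. The cytosine 90 bp before the start read 1.27%, 0% and 0% in hemicastrated mice and 3.95%, 1.94% and 1.75% in sham mice.

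The other 5 promoter ends did not meet the coverage rule, and their calls were summed without a minimum, with 95% Wilson intervals that cover counting error only and with no test; the positions differ between mice. Dmc1, the strand exchange recombinase, had 5 to 42 calls per mouse and between 0% (0 of 5, interval up to 43.5%) and 15% (3 of 20, interval 5.24% to 36.0%) methylated. Rec8, the meiotic kleisin, had 7 to 44 calls, with 17.1% in hemicastrated mouse 3 (7 of 41, interval 8.53% to 31.3%) and 0% to 2.86% in the other 5 mice. Both read low at the start, as far as so few calls can show. Syce1, the partner of Syce2 in the central element, gave 0%, 61.5% and 80% in hemicastrated mice and 28%, 0% and 9.09% in sham mice on 10 to 25 calls. That spread within each group leaves its promoter end undetermined at this depth. The stretch around the table start of Mei1 was methylated in all mice, from 78.9% to 100% on 19 to 72 calls. Mei1 has an outer boundary 12402 bp further upstream, and there 14 cytosines that met the coverage rule (chr15:82070124-82070193) read 3.80%, 1.58% and 2.19% in hemicastrated mice and 2.37%, 3.24% and 1.06% in sham mice. So the unmethylated end of Mei1 lay at its outer boundary and not at the start in the promoter table. For Spo11 the tables give no start; its lower boundary had 40% to 61.3% on 10 to 31 calls, and the intervals of all 6 mice overlapped.

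Gene bodies of 4 members had at least 3 cytosines, and their levels lay below the median of all bodies, 79.8%. Of 95 member body cytosines, 35 averaged over 80% over the mice, 21 between 25% and 80%, and 39 below 25%. The last count includes 14 Mei1 cytosines at its outer gene boundary, which averaged 2.37%. The other Mei1 body clusters averaged 94.5% to 95.7%, above that median, so the low Mei1 level depended on counting the 14 as body. None passed the edgeR test, which called 0 of 13416 bodies in the genome (0%) with 468 (3.49%) at an unadjusted p under 0.05; limma called 0. The groups overlapped in all 4 members, beside 9.28% of all bodies without overlap (4.15% higher and 5.13% lower in the hemicastrated mice). By unweighted level, 1 body was higher and 3 were lower in the hemicastrated mice, with a median difference of -0.98 points, against -0.066 over all bodies. Each of these 4 window levels averages clusters that were themselves near 0%, part methylated or near 100%.

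Stag3 had the most measured body cytosines of the members, 35, with levels of 58.2%, 59.9% and 52.9% in hemicastrated mice and 61.5%, 54.9% and 61.4% in sham mice. The difference was -2.30 points with a standard error of 3.04 (adjusted p = 0.9999, edgeR). A cluster of 17 cytosines from -4770 to -4516 bp of the table start, inside Gpc2 (chr5:138275739-138275993), was part methylated. It read 39%, 35.9% and 24.9% in hemicastrated mice and 41.5%, 24.5% and 38.3% in sham mice. Hemicastrated mouse 3 and sham mouse 2 were the lowest on both strands, so the spread was between mice and not between groups. Further on, the mean of 6 cytosines was 92.2% to 96.2% per mouse. Near the 3′ end, 6 cytosines at chr5:138307236-138307260 read 91.8% to 98.2% per strand. Positions 138307170 and 138307268 beside them read only 4.29% to 13.8% and 4.44% to 10.98%, in every mouse. Whether KM mice hold a CpG at these positions was not tested.

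Mei1 had 29 body cytosines, and the window read 49.7%, 51.0% and 48.8% in hemicastrated mice and 49.6%, 52.1% and 49.7% in sham mice. The difference was -0.64 points with a standard error of 1.03, or 2.13 points with levels weighted by coverage (adjusted p = 0.9999, edgeR). This middle value joined the 14 cytosines at the outer boundary, at 2.37%, with 15 others that averaged 94.5% to 95.7% by cluster. In the cluster at chr15:82121454-82121570, 10 of 11 cytosines read 89.5% to 100% in all mice. The other, position 82121545, read 46.5%, 100% and 48.2% in hemicastrated mice and 55.7%, 98.2% and 63.2% in sham mice, on 68 to 109 reads. Hemicastrated mouse 2 and sham mouse 2 read near 100% there and the other 4 were near the middle. The position was singled out after its values were seen, and whether the mice differ in DNA sequence there was not tested.

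Mei4, a gene of 342338 bp, had 8 body cytosines with 69.4%, 70.6% and 70.2% in hemicastrated mice and 68.4%, 69.4% and 70.3% in sham mice. The difference was 0.73 points with a standard error of 0.65, or -1.29 points with levels weighted by coverage (adjusted p = 0.9999, edgeR). Of 7 cytosines near the middle of the gene (chr9:82037609-82037696), 6 were high, whereas position 82037648 between them read 0% to 1.08% in all mice on 88 to 115 reads. The eighth, position 82153787, read 5.71% in hemicastrated mouse 1 and 0% in the other 5. For these low positions too, the DNA sequence of KM mice was not tested.

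**Figure D3:**
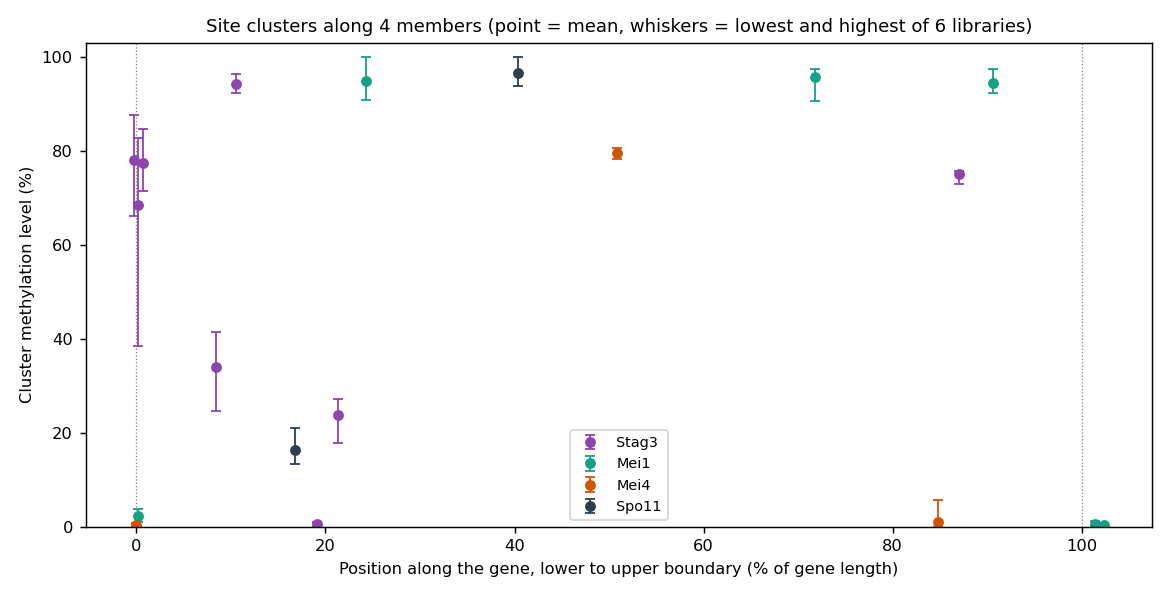
Methylation level in percent (vertical axis) of clusters of measured cytosines along Stag3, Mei1, Mei4 and Spo11, placed by percent of the gene's length from the lower to the upper boundary. Points are means and whiskers the lowest and highest of 6 mice; Stag3 alternates between high and low clusters within its first part, and Mei1 and Mei4 start near 0% and are high inside, but for a single Mei4 cytosine near 0% toward the upper boundary.

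Spo11, the nuclease that makes the breaks, was measured only in its body, at 22 cytosines: 23.3%, 23.3% and 22% in hemicastrated mice and 23.3%, 28.1% and 21.2% in sham mice. The difference was -1.32 points with a standard error of 2.07 (adjusted p = 0.9999, edgeR). A cluster of 20 cytosines in 62 bp (chr2:172980069-172980130), near the listed start of Gm52538, averaged 16.2%. That value is in the range of the Sycp2 and Smc1b promoter ends and far below the 96.6% of a single CpG at chr2:172983919-172983920. Strands differed mouse by mouse. The plus strand read 11.5%, 17.4% and 7.57% in hemicastrated mice and 12.9%, 16.5% and 16.3% in sham mice, and the minus strand read 20.9%, 15.2% and 20.8% against 19.5%, 25.7% and 10.6%. The minus strand was thus higher in 4 mice and lower in hemicastrated mouse 2 and sham mouse 3. Within the cluster, 2 adjacent CpGs (positions 172980112 to 172980117) read 11.1% to 18.1% in hemicastrated mouse 2 and 9.64% to 16.7% in sham mouse 2 over both strands. In the other 4 mice they read 0% to 4%.

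**Figure D4:**
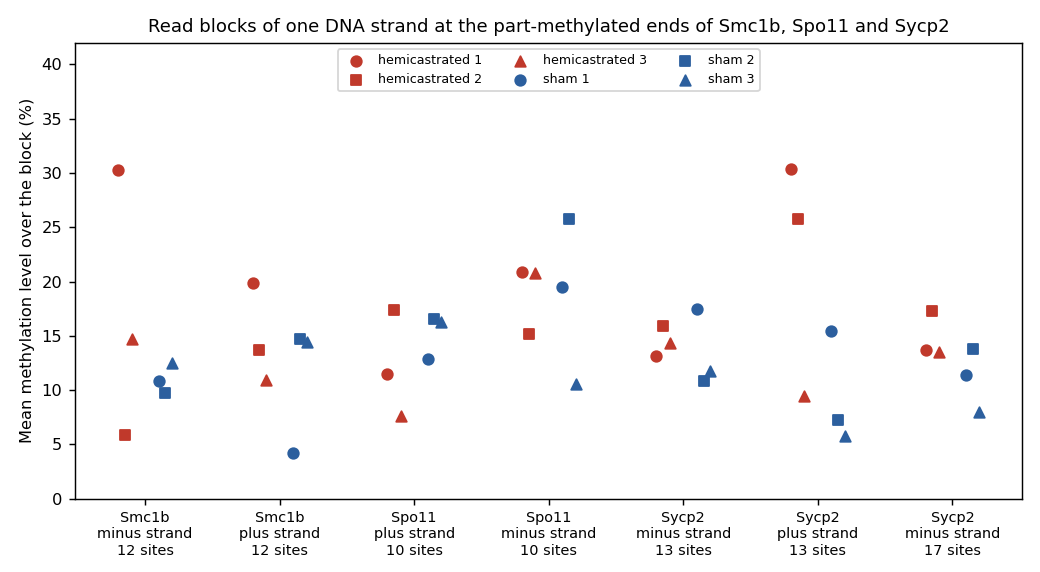
Mean methylation level in percent (vertical axis) of blocks of at least 10 cytosines of a single DNA strand at Smc1b, Spo11 and Sycp2, with a symbol per mouse. Hemicastrated mouse 1 is the highest in both Smc1b blocks and in the Sycp2 plus strand block at 30.3%, and is within the other mice in the 2 Sycp2 minus strand blocks.

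The remaining bodies were measured thinly. Syce1 had a single body cytosine, chr7:140784895 within Gm29799, at 91.9%, 94.3% and 98.0% in hemicastrated mice and 100%, 98.6% and 97.7% in sham mice; the groups overlapped and a window of this size was not tested. With all calls summed and no minimum, Rec8 bodies read 89.7% to 97.8% on 19 to 45 calls, and the groups overlapped. The Sycp2 body read 80% to 100% on 3 to 27 calls in the mice with calls, and sham mouse 3 had none. The Syce2 body read 25% in sham mouse 2 on 4 calls, and 76.9% to 100% in the other mice on 5 to 13 calls. At Sycp2 and Syce2 too the groups overlapped. The Dmc1 body read 92.6%, 92.1% and 100% in hemicastrated mice and 85.2%, 85% and 80.6% in sham mice, on 20 to 39 calls. The Smc1b body read 78.8%, 83.0% and 87.9% in hemicastrated mice and 94.8%, 98.0% and 91.7% in sham mice, on 52 to 401 calls at positions that differed between mice. The groups overlapped neither at Dmc1, where hemicastrated mice were higher, nor at Smc1b, where they were lower. The calls cover other cytosines in each mouse, so no test was made, and no share over all genes was counted at this setting.

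Flanks held 31 cytosines of 3 members, and none was called (edgeR; 1 of 5025 flanks in the genome, 0.0199%, was called, that of Gm52115, named after its value was seen). An unadjusted p under 0.05 was given to 4.58% of all flanks and to no member. The groups overlapped in all 3 members, whereas 10.1% of all flanks did not overlap, 4.69% with higher and 5.45% with lower levels in the hemicastrated mice. Next to the outer boundary of Stag3, 3 cytosines within Gal3st4 (chr5:138272374-138272455) read 66.1%, 73.8% and 78.2% in hemicastrated mice and 76.9%, 85.9% and 87.5% in sham mice. Hemicastrated mouse 3 was above sham mouse 1. The difference was -10.7 points with a standard error of 4.83 (adjusted p = 0.963, edgeR), on 14 to 35 reads per cytosine. Past the end of Rec8, the mean of 3 cytosines inside Ipo4 was 89.3% to 96.7% per mouse. Past the end of Mei1, the mean of 25 cytosines near the start of Ccdc134 was 0.179% to 0.797% per mouse, around the floor.

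Single cytosines gave no call either. Of 303 member cytosines 269 could be tested, 0 were called and 2 (0.743%) had an unadjusted p under 0.05, while in the genome 706 of 814966 (0.0866%) were called and 2.62% had such a p (edgeR). The smallest adjusted p of a member cytosine was 0.841, and limma called 0. The groups did not overlap at 23 member cytosines (7.59%), 14 of them higher in hemicastrated mice, against 5.18% of all cytosines. The pair with a p under 0.05 were position 55626958 past Rec8, with 97.8%, 100% and 98.3% in hemicastrated mice and 92.9%, 87.5% and 93.3% in sham mice, and position 138280121 before Stag3. At the latter, hemicastrated mice read 0% and sham mice 1.85%, 2.86% and 1.96%, with p values of 0.024 and 0.044 for the pair before adjustment and 0.841 after it. The smallest p at Sycp2 (0.060) was at position 178407480, where hemicastrated mice read 35.3%, 20.7% and 9.68% and sham mice 14.8%, 3.03% and 0%. At Smc1b it was 0.120, at position 85131785, with 31.6%, 11.5% and 14.3% against 4.76%, 5.71% and 10%. The smallest p of the other members was 0.065 at position 82037609 of Mei4, 0.068 at position 82121543 of Mei1, 0.075 at position 84872727 of Syce2, 0.137 at the Syce1 cytosine and 0.179 at position 172980112 of Spo11. Levels varied by at least 40 points over the 6 mice at 4 cytosines: position 178407597 of Sycp2, positions 138272557 and 138272577 of Stag3, and the Mei1 position described above.

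The other genes of the pathway showed the same 2 kinds of promoter end. Of 40 further genes of recombination, synapsis and chromosome axes, 24 had a measured promoter end, 14 of them below 5% and 10 between 5% and 25%. None was called, none had an unadjusted p under 0.05, 10 were higher and 14 lower in the hemicastrated mice, and the median difference was -0.095 points (edgeR). As examples chosen after their values were seen, part-methylated ends included Hormad1 (24.6%) and Hormad2 (7.49%), which mark unsynapsed axes, Ankrd31 (23.5%) and Iho1 (13.2%), partners of MEI4 in break formation, and Msh4 (13.6%), a crossover factor. Ends near the floor included Prdm9 (0.321%), which sets the sites of breaks, and Hfm1 (0.548%), a crossover helicase. The smallest unadjusted p among genes that were higher belonged to Sycp3 (0.096), the partner of SYCP2 in the lateral element, and to Stra8 (0.107), the retinoic acid target that opens the meiotic programme. Sycp3 read 28.2%, 13.2% and 18.7% in hemicastrated mice and 18.3%, 10.6% and 15.4% in sham mice. Stra8 read 28.1%, 29.1% and 19.7% against 9.43%, 8.05% and 34.6%. Among genes that were lower it belonged to Psmc3ip (0.092), a cofactor of DMC1, at 2.12% ± 0.687 against 2.71% ± 0.0887, and to Ythdc2 (0.222), at 0.240% ± 0.213 against 0.439% ± 0.135 (SD, n = 3 each). All 4 had an adjusted p of 0.997 (edgeR).

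Bodies of 16 of these 40 genes were measured, with a median level of 85.6%, 10 higher and 6 lower. None was called, and 1, Syce3 of the central element, had an unadjusted p under 0.05 (0.043, adjusted p = 0.9999, edgeR). Its 7 cytosines read 91.7%, 89.6% and 89.9% in hemicastrated mice and 92.5%, 97.2% and 94.4% in sham mice. Mcmdc2 was next among bodies that were lower, at 8.0% ± 5.02 against 10.1% ± 5.53 (SD, n = 3 each). Among those that were higher, Msh4 (15.4% ± 6.65 against 9.48% ± 6.46) and Tex11 (88.3% ± 2.49 against 87.4% ± 0.736) had the smallest p. Their adjusted p was 0.9999 in each case (edgeR).

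**Figure D5:**
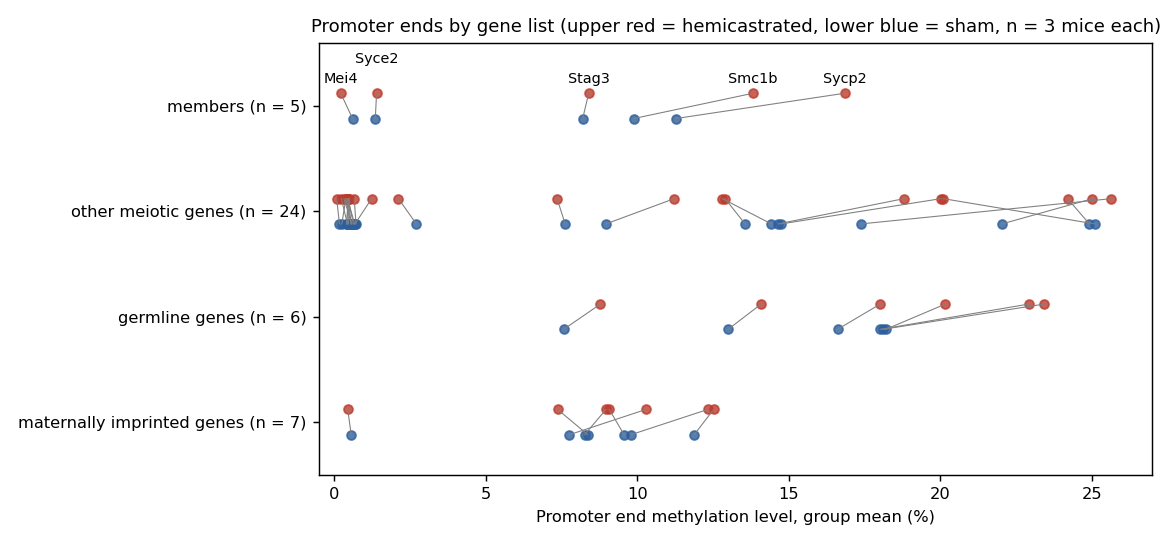
Group means of promoter end methylation in percent (horizontal axis), hemicastrated above in red and sham below in blue, for the 5 measured members, 24 other meiotic genes, 6 germline genes and 7 maternally imprinted genes. Each line joins the means of a gene over 3 mice per group; members and other meiotic genes fall below 3% or between 7% and 26%.

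Values that vary with the share of somatic cells are set beside the part-methylated promoter ends. Promoter ends of 6 germline genes (of 8 listed), known to be methylated in somatic cells, lay between 8.18% and 20.8%, and 6 of 6 were higher in the hemicastrated mice with 0 called, beside 55.23% of all promoter ends that were higher. Their mean was 20.3%, 16.7% and 16.8% in hemicastrated mice and 14.6%, 18.0% and 13.2% in sham mice. Maternally imprinted genes are known to carry a mark that is methylated on a single allele in somatic cells and on none in male germ cells. Promoter ends of 7 such genes (of 10 listed) ranged from 0.507% to 12.2%, with 4 higher and 3 lower. The lowest, of Inpp5f, was at the floor and showed no such mark, while the Inpp5f body read 12.6%. The mean of the 7 was 10.7%, 7.63% and 7.80% in hemicastrated mice and 10.1%, 7.45% and 6.57% in sham mice. Bodies of 8 listed genes were measured, with 4 higher, 4 lower and 0 called. Inpp5f (17.1% against 8.18%) and Mest (38.5% against 29.5%) were among the higher. Peg3 (42.6% against 51.4%) and Snrpn (39.9% against 43.4%) were among the lower, and sham mouse 3 was the highest in both. Hemicastrated mouse 1 was the highest of the 6 in the promoter end means of both lists, as it was at Smc1b. At Sycp2 the highest was hemicastrated mouse 2 (19.5%). Sham mouse 3 was the lowest in both means, as it was at Sycp2, whereas at Smc1b the lowest was sham mouse 1 (7.35%). The 10 part-methylated genes of the pathway list averaged 21.04% in hemicastrated mouse 1 and 15.6% to 16.97% in the other 5, of which sham mouse 1 was the lowest. The part of cell makeup in the member values was not tested. Averaged over the 5 members, promoter ends read 9.79%, 7.79% and 6.83% in hemicastrated mice and 6.01%, 6.61% and 6.18% in sham mice, a difference of 1.87 points, which was 1.05 without hemicastrated mouse 1, 1.07 with 20 reads required and 1.22 with levels weighted by coverage. Bodies averaged over 4 members differed by -0.88 points and overlapped.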

How the data were processed

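The submitters' processing notes name Bismark, TopHat2 2.0.11 and build GRCm38; aligner settings were not given in the sources used here. Per the file headers, each deposited file lists cytosines by position, with counts of methylated and unmethylated reads and their methylation as a percent. Short MspI fragments were selected, per the labels' protocols, so only CpGs near MspI sites were read. Of 125590 measured positions inside promoter sequences, 99.99% lay on a CpG. No duplicate removal is recorded, so read numbers can include PCR copies.

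Counts were summed per window (at least 3 cytosines with 10 or more reads in all 6 files) and tested with edgeR 4.0.16 (R 4.3.3) by the quasi-likelihood F test, with library columns and a methylation by group term, over all genes; p-values were adjusted by Benjamini-Hochberg over all windows or cytosines, with a threshold of 0.05. limma 3.58.1 on log2 ratios (1 added to each count) was an alternative. The model was tested on simulated counts. Starts came from the RefSeq promoter table, otherwise from the gene boundary with more listed positions. Exon annotation was not used here.

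The members and all gene lists were chosen with earlier results of these data known. All 10 members are named, with the cytosine of smallest p in each, and of 40 pathway genes the pair with the smallest p in each direction and examples by level. Replicate numbers were not treated as pairs in the main test. Coverage minimum, weighting, window, strand merging, prior and left-out mice were varied.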

Additional observations from a re-analysis of the deposited data

How the results depend on the processing

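No alternative gave a member window or member cytosine an adjusted p under 0.05. Of 156 member window differences under alternatives that can alter the levels, 138 kept their direction and 18 changed it. Part of the 138 equal the main value because the alternative kept the same cytosines, so the count is no measure of robustness. This was so of every promoter end with 2000 bp before the start and every body without 1000 bp at either end. A further 36, from limma, the robust prior and the replicate block, use the main levels and could not change direction. With levels weighted by coverage, the Smc1b promoter end differed by 1.59 points, the mean over the 5 members by 1.22, the Syce2 promoter end by -0.0913, the Mei1 body by 2.13 and the Mei4 body by -1.29. With 20 reads required, the Sycp2 promoter end differed by 2.63, the mean over the 5 members by 1.07, the Mei4 promoter end by -0.582, the Stag3 promoter end by -0.388, Syce2 by -0.0621 and the Mei1 flank by 0.0055 points, and with 5 reads the Mei1 flank differed by 0.133 and the Mei4 promoter end by -0.124. Merging strands gave -0.0105 at Syce2, and 500 bp either side of the start gave -1.04 at Stag3. With the outer gene boundary as the start, chosen after seeing the data, the Stag3 promoter end moved into Gal3st4 (7 cytosines) and differed by -11.8 points (adjusted p = 0.991, edgeR), the Mei1 promoter end by 0.295 (adjusted p = 0.998), and the mean over the 5 members by -0.529 points. Leaving out each mouse in turn, promoter end differences ranged from 4.16 to 7.74 at Sycp2, -0.107 to 6.57 at Smc1b, -0.678 to 0.928 at Stag3, -0.109 to 0.135 at Syce2 and -0.493 to -0.237 at Mei4. Body differences ranged from -4.47 to -0.231 at Stag3, -1.21 to 0.175 at Mei1, 0.260 to 1.20 at Mei4 and -2.81 to 0.611 at Spo11. Flank differences ranged from -14.0 to -7.45 at Stag3, -0.262 to 0.0014 at Mei1 and 0.0659 to 3.55 at Rec8. Over all genes, calls ranged from 0 to 1 in promoter ends, 0 to 1 in bodies and 0 to 2 in flanks when a mouse was left out. The call in flanks was 0 with limma, with the replicate block, without cytosines spanning 40 points, and with strands merged. Calls over all cytosines fell to 446 with the robust prior and to 147 with limma. The cause of these changes was not tested. The replicate number as a block called 0 member windows and 0 member cytosines. Deviations of same-numbered mice correlated by 0.0251, 0.0277 and -0.0064, and those of differently numbered mice by -0.0327 to 0.0077. Such small values at single cytosines cannot decide whether the numbers pair the mice. Depth limits the part-methylated promoter ends, with cytosines at as few as 17 reads at Sycp2, 13 at Smc1b and 15 at the inner Stag3 cluster, and leaves the Dmc1, Rec8, Syce1 and Spo11 ends without a tested value.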
